A study of Mus musculus with 2 samples.

Results

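The genes described here are the replication histone genes that lie in clusters in the mouse genome, taken as the rows of the deposited single-cell count matrices whose symbol starts with Hist1h, Hist2h, Hist3h or Hist4h and that hold at least 100 unique molecular identifiers (UMIs, counted RNA molecules) over all 8 matrices. Of 19059 genes in the matrices, 36 had such a symbol and 34 of these passed the minimum. Hist1h2ba with 62 UMIs and Hist1h2ad with 51 UMIs fell just short of it, and Hist1h2aa with 206 UMIs and Hist1h2bm with 243 UMIs passed just above it. The reference annotation places 67 protein-coding genes in these clusters, so the matrices cover part of the family.

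The cells came from orthotopic brain tumors grown in C57BL/6J mice from mGSC, a mouse glioblastoma stem cell line that carries Trp53+/- and Nf1+/- in both groups. Mice received vehicle or Xevinapant, an orally active SMAC mimetic that antagonises inhibitor of apoptosis proteins, at 50 mg/kg/day by gavage for 7 days, and 4 tumors per group were taken right after treatment. Fixed cells were measured with a probe panel read in droplets, which reports a gene by probes that bind its RNA rather than by its poly(A) tail. Because probe number and binding differ between genes, levels are compared here for 1 gene or 1 sum across cells, not between genes. The line was implanted into mice with their own immune system, so tumor cells and host cells were sequenced together.

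The 8 matrices held 56943 barcodes, of which 54574 passed the filters on genes and mitochondrial RNA, with 71835789 to 300206053 UMIs per matrix and a median of 7452 to 14027 UMIs per barcode. Pairs of matrices of 1 group were compared by a chi-square statistic over genes divided by its degrees of freedom. It was 3.75 to 22.4 for 3 pairs (vehicle 1 and 3, Xevinapant 1 and 2, Xevinapant 3 and 4) and 102 to 269 for the other 9, so the matrices of each of those 3 pairs were summed and counted as 1 sample. These pairs still differed by more than counting noise, and it is uncertain whether the matrices of a pair came from 1 tumor or pool or are separate tumors, as the 4 tumors per group would have it. Counting each pair once is therefore a choice, and with each matrix as 1 sample the genes called between treatments in tumor cells went from 0 to 720 (edgeR). The comparisons therefore rest on 3 vehicle samples (vehicle 1 and 3, vehicle 2, vehicle 4) and 2 Xevinapant samples (Xevinapant 1 and 2, Xevinapant 3 and 4), and per-sample values are given in this order. The names of the Xevinapant count files also carry the word vehicle, and the groups here follow the labels, so every treatment direction rests on those. Pool and batch coincided with treatment and cannot be told apart from it. Within a pool no whole barcode occurred in more than 1 matrix. For each pair of matrices of a pool, the droplet parts found in both amounted to 7.13% to 22.1% of the barcodes of the smaller matrix. Between pools up to 528 whole barcodes were the same in a pair of matrices.

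Marker UMIs gated 36959 tumor cells, 3707 immune cells and 11297 low-RNA barcodes, the last defined as having fewer UMIs than the median of their matrix divided by 3 and not being gated to another cell type. All 16 tumor markers (among them Olig1, Olig2, Sox2 and Pdgfra) were detected in the tumor cells, at a summed 7492 to 10096 UMIs per 1000000 (CPM), against 567 to 1553 CPM in immune cells. The 17 immune markers on the panel stood at 22876 to 27470 CPM in immune cells and at 69.8 to 129 CPM in tumor cells, differences that the gates on these lists require.

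Replication-dependent histone genes supply the proteins that package newly copied DNA, namely the core histones H2A, H2B, H3 and H4 and the linker histone H1. Their mRNAs are made mainly in S phase under the coactivator NPAT, and most end in a short stem-loop bound by the protein SLBP instead of a poly(A) tail. Some of the genes, such as Hist1h1c, Hist1h2bc, Hist2h2be and Hist3h2a, are also known to give polyadenylated mRNA outside S phase, and Hist1h1t, Hist1h2aa and Hist1h2ba are known as testis forms.

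The 34 genes comprised 6 H1, 8 H2A, 8 H2B, 7 H3 and 5 H4 genes. In GRCm38, 26 lay on chromosome 13, 5 on chromosome 3, 2 on chromosome 11 and 1 on chromosome 6, and 31 had a single exon. They collected 5444647 UMIs, 0.468% of all UMIs. H1 genes held 50.1% of these, H2A genes 37.1%, H2B genes 6.63%, H3 genes 5.25% and H4 genes 0.854%. Hist1h1e and Hist1h2ap together held 55.4%, and the 18 genes with under 10000 UMIs held 1.19%. Of the 34 genes, 29 shared at least one 50-base run of transcript with another histone gene and 21 shared over 20% of their runs. The share was 93.1% for Hist1h2ap and 79.7% for Hist1h2af but 0% for Hist4h4, so how counts divide between such near-copies is uncertain. The annotated span of Hist1h2be (chr13:23583670-23621124, minus strand) also reaches into Hist1h1e on the same strand.

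The 3′ stem-loop was searched in the annotated transcripts past the stop codon and was found in 28 of the 34 genes, 21 to 58 bases (median 30) after the stop. No match was found in the annotated transcripts of Hist1h1a, Hist1h1b, Hist1h2aa, Hist1h2af, Hist1h2bc and Hist2h2be. The sequences below are shown because the genes on which the results turn differ in this element only by a few bases. Each is the sense strand with up to 5 flanking bases on either side, in the GRCm38 annotation, and capitals mark the stem-loop.
Hist1h1e: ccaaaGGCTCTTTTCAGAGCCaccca
Hist1h2ap: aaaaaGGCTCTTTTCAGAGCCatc
Hist1h3a: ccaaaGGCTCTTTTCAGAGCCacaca
Hist1h3g: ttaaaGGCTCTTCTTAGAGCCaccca
Hist1h3c: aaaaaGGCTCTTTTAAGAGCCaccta
Hist1h2bg: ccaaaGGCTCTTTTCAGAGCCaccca
Hist2h4: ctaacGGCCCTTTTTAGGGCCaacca
Hist1h4a: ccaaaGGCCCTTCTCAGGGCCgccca
Hist1h4j: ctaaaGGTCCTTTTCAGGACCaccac
Hist4h4: acaaaGGCCCTTTTCAGGGCCcacaa
The form of Hist1h1e was the commonest, in 18 genes, and it was carried by genes that were higher and by genes that were lower in the cells with most S-phase RNA. The forms that start with GGCCC were found in 4 H4 genes and in no gene of another class.

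Promoters were matched for 28 of the 34 genes in the RefSeq table of GRCm38.p6, each spanning 250 bases before to 50 bases after the start. Motifs were searched on both strands. The CCAAT box (CCAAT) was present in 25 of 28 (89.3%) against 37.4% of 32851 promoters of all genes, with 1 of the 4 H4 promoters holding it and all of the other classes. The TATA box (TATAAA) was present in 57.1% against 13.6%. The octamer (ATTTGCAT), known from H2A and H2B promoters, was present in 5 of 8 H2A and 2 of 6 H2B promoters and in 1.74% of all promoters. The H1 box (AAACACA) was present in 4 of 5 H1 promoters and in 7.18% of all. The promoters of Hist1h1e (chr13:23622509-23622808, minus strand) and Hist1h2ae (chr13:23571171-23571470, minus strand) are shown as an H1 promoter and as a promoter that faces an oppositely oriented H2B gene, with capitals for the motifs on either strand.
Hist1h1e: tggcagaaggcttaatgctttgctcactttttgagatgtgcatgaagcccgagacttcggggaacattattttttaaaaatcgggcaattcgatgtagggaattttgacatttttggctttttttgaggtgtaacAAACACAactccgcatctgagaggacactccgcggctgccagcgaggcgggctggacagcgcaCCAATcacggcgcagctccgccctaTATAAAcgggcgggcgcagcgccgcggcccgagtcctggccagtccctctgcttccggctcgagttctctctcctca
Hist1h2ae: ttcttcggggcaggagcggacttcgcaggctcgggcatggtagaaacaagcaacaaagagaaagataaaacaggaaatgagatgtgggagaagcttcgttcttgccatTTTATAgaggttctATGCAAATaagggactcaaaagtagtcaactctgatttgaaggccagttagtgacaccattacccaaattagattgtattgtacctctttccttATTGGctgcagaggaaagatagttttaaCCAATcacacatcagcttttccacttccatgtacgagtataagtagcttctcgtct
The start sites of Hist1h2ae and Hist1h2bg, at 23571220 and 23571396 on chromosome 13, lie 175 bases apart between them, so the second sequence holds the starts of both genes.

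The first comparison asked how the genes differ between tumor cells with much and with little RNA for S-phase proteins. Tumor cells with at least 4000 UMIs were thinned to 4000, and the cells with at least 21 UMIs on 22 S-phase genes, the 80th percentile, were called S-high. The list holds no histone gene. A range cut from a score is not a cell type, and 784 cells lay at the cut and 784 one UMI below it. S-high cells made up 24.4%, 18.6% and 20.7% of thinned tumor cells in the vehicle samples and 15.1% and 21.4% in the Xevinapant samples.

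The summed level of the 34 genes was higher in S-high cells of all 5 samples, but single genes moved in both directions. In S-high cells it was 6987, 6281 and 6817 CPM in the vehicle and 5853 and 6481 CPM in the Xevinapant samples. In other tumor cells it was 4395, 4318 and 4796 CPM and 2981 and 3942 CPM. The ranges did not overlap. The other tumor cells include cells above a cut on G2/M genes alone (given below), which held a large part of their histone UMIs. In vehicle samples these cells held 222784 of 407311, 185597 of 372808 and 468662 of 879042 UMIs. In Xevinapant samples they held 128880 of 254594 and 351171 of 779376. Their part in the single-gene values was not tested. Of 33 genes tested, 14 (42.4%) were higher and 10 (30.3%) lower in S-high cells at an adjusted p under 0.05 (edgeR quasi-likelihood test, Benjamini-Hochberg over 14365 genes, sample as a block). Over all genes tested 31.6% were higher and 31.9% lower, so the share of lower histone genes was near the background. The median log2 fold change was 0.12 for the histone genes and -0.03 for all genes. Without TMM scaling the split became 12 higher and 13 lower, with 22 genes called in both, while the median of all genes moved to -0.11.

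Linker histone genes rose as a whole class, with 6 of 6 higher and a median log2 fold change of 0.62. Hist1h1a stood at 173, 130 and 135 CPM in vehicle and 150 and 157 CPM in Xevinapant S-high cells, against 74.7, 55.7 and 59.2 CPM and 45.2 and 61.5 CPM in the other tumor cells. Its log2 fold change of 1.41 (SE 0.07, adjusted p = 2.37e-06, edgeR) was the largest of the 33, and it was higher in 5 of 5 samples. Hist1h1b rose by 1.02 on the log2 scale (SE 0.07), Hist1h1e by 0.64 (SE 0.06), Hist1h1c by 0.61 (SE 0.07) and Hist1h1d by 0.60 (SE 0.07), each in 5 of 5 samples. The testis form Hist1h1t was called higher at 0.47 (SE 0.16), but only 3 of 5 samples showed that direction, and vehicle 2 held 17.1 CPM in tumor cells where the other samples held 2.25 to 5.71 CPM. Its call was lost without vehicle 1 and 3 (0.40), without vehicle 2 (0.43) and without Xevinapant 3 and 4 (0.33), without TMM (0.39) and with the S cut at the 90th percentile (0.31).

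Among H2A genes, which encode the core histone that pairs with H2B, 4 of 7 were higher and 2 lower. Hist1h2ap was at 1724, 1654 and 1840 CPM in vehicle and 1655 and 1694 CPM in Xevinapant S-high cells, against 976, 1023 and 1209 CPM and 727 and 978 CPM in other tumor cells. No S-high value reached down to the other cells (log2 fold change 0.90, SE 0.08). Hist1h2ae (0.85, SE 0.07) and Hist1h2af (0.79, SE 0.08) rose as well, although Hist1h2ap and Hist1h2af share most of their sequence with other H2A genes. Hist2h2aa1 was called higher at 0.31 (SE 0.11), a call lost on leaving out any 1 sample other than vehicle 4 (0.24 to 0.34), and the value fell to 0.0090 with the S cut at the 90th percentile. That call was also lost with DESeq2 (0.31), without TMM (0.23) and without a filter on low counts (0.29). Hist3h2a, on chromosome 11, fell by 0.81 on the log2 scale (SE 0.06), from 74.7, 61.3 and 42.8 CPM in vehicle and 42.0 and 47.5 CPM in Xevinapant other tumor cells to 46.2, 31.8 and 21.3 CPM and 19.6 and 27.9 CPM in S-high cells. It fell within each of the 5 samples while the ranges over samples overlapped.

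No H2B gene rose and 4 of 8 fell. Hist1h2bg was at 2.51, 1.60 and 1.05 CPM in vehicle and 2.61 and 2.05 CPM in Xevinapant S-high cells, against 5.06, 4.18 and 2.43 CPM and 4.73 and 5.38 CPM in other tumor cells (log2 fold change -1.10, SE 0.11, adjusted p = 3.23e-05, edgeR). It was lower in S-high cells of 5 of 5 samples, with an overlap of the ranges only through the low values of vehicle 4, and its neighbour across the shared promoter, Hist1h2ae, was higher in 5 of 5. Hist3h2ba fell by 0.60 (SE 0.07), Hist1h2be by 0.49 (SE 0.12) and Hist1h2bh by 0.38 (SE 0.13) on the log2 scale. The call of Hist1h2bh was lost without vehicle 1 and 3 (-0.40), vehicle 2 (-0.34) or vehicle 4 (-0.28) and with cells thinned to 2000 UMIs (-0.25). Hist1h2bc, the H2B gene with most UMIs, had a log2 fold change of -0.15 (SE 0.08) and was not called, nor was Hist2h2be at -0.17 (SE 0.09).

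The H3 class divided by gene. Hist1h3a was at 144, 139 and 147 CPM in vehicle and 185 and 183 CPM in Xevinapant S-high cells, against 59.6, 59.9 and 70.3 CPM and 60.3 and 78.6 CPM in other tumor cells (log2 fold change 1.35, SE 0.07, adjusted p = 2.20e-06, edgeR). Hist1h3g rose by 1.09 (SE 0.09) and Hist1h3c by 0.81 (SE 0.08). Hist1h3d fell by 0.64 (SE 0.11) and Hist2h3c1 by 0.54 (SE 0.14). All 5 of these moved the same way in every sample.

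Of the H4 genes Hist1h4i rose by 0.50 (SE 0.07), Hist2h4 and Hist4h4 fell, and Hist1h4a and Hist1h4j were not called. Hist2h4, on chromosome 3, was at 5.03, 3.63 and 1.53 CPM in vehicle and 3.36 and 3.98 CPM in Xevinapant S-high cells, against 9.56, 8.18 and 5.49 CPM and 7.68 and 9.17 CPM in other tumor cells. Its groups did not overlap (log2 fold change -1.17, SE 0.12, adjusted p = 4.68e-05, edgeR), and it had the lowest value of the 33. Hist4h4 fell by 0.27 (SE 0.10), a call that was lost without vehicle 2 (-0.29), vehicle 4 (-0.20), Xevinapant 1 and 2 (-0.24) or Xevinapant 3 and 4 (-0.28), with the S cut at the 90th percentile (-0.25) and with cells thinned to 2000 UMIs (-0.12).

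**Figure D1:**
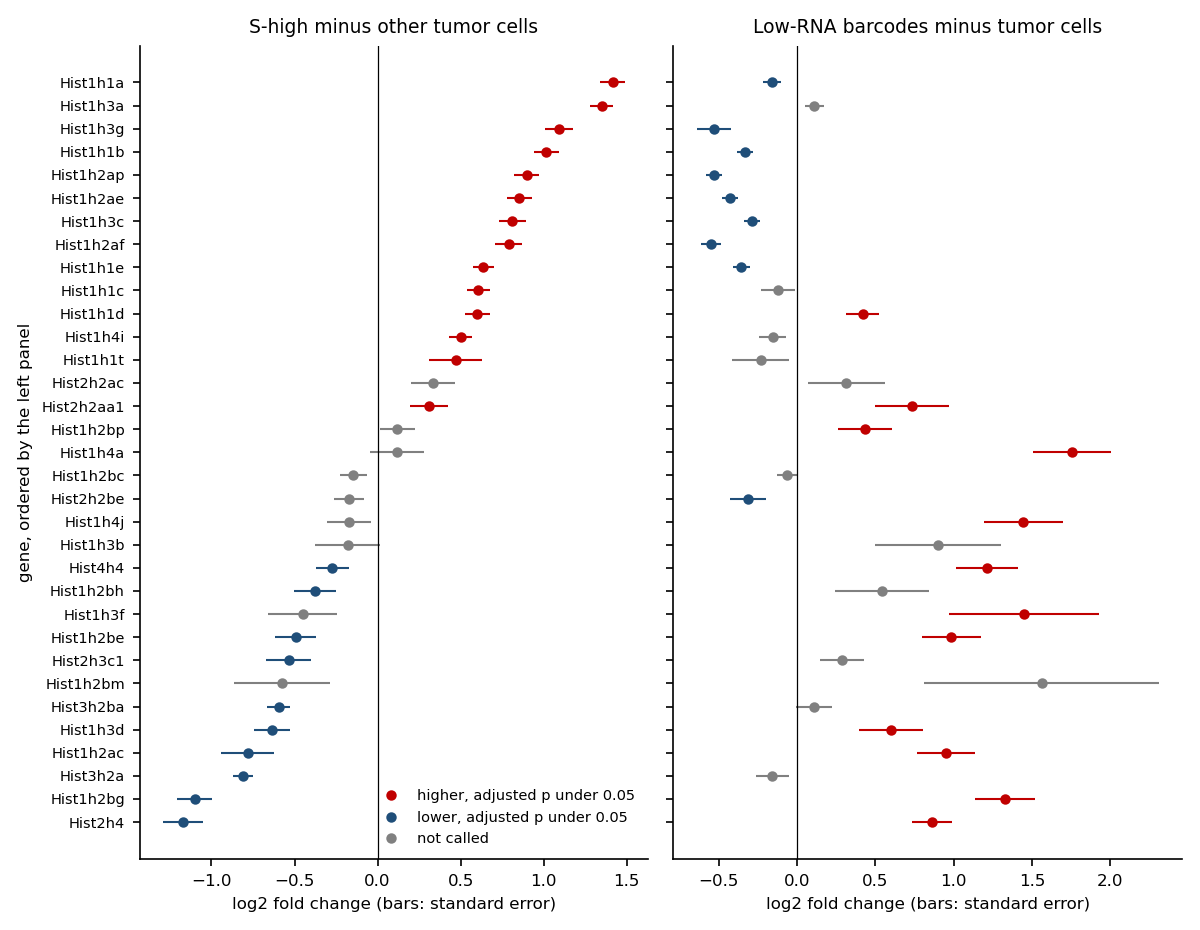
Log2 fold change (horizontal axis) of each histone gene in S-high minus other tumor cells (left) and in low-RNA barcodes minus tumor cells (right). Bars are standard errors derived from the edgeR test on 5 samples, and genes are ordered by the left panel. Red and blue points are called higher and lower, from Hist1h1a at 1.41 to Hist2h4 at -1.17 on the left and from Hist1h4a at 1.75 to Hist1h2af at -0.55 on the right.

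Most genes of a list of factors that make, bind or handle histone mRNA and histones were higher in S-high cells. The list also holds the cell-cycle genes E2f1 (1.48, SE 0.09) and Cdk2 (1.08, SE 0.05). Of its 15 genes 13 were higher and none lower, against 31.6% higher and 31.9% lower over all genes. Among the higher were Slbp, which encodes the stem-loop binding protein (1.11, SE 0.06), and Npat (0.35, SE 0.03). How far this rise follows from the cut on the S list was not tested. Lsm10 (-0.02) and Zfp473 (-0.23) were not called and were named after their values were seen. Of 11 replication-independent histone genes, whose mRNAs are mostly polyadenylated, 7 were higher and 2 lower. H2afz was at 0.59 (SE 0.07), H3f3a at 0.30 (SE 0.04), H3f3b at -0.09 (SE 0.03) and H1f0 at 0.08 (SE 0.04, not called). All 22 genes of the S list rose, as the cut on that list requires.

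Annotated transcript length past the stem-loop varied from 3 bases in Hist1h2ap to 4884 bases in Hist1h1d, and the genes were grouped by it after their fold changes had been seen, so the counts are a description with no test. Of the 11 genes with over 500 annotated bases past the stem-loop, the 3 that were higher in S-high cells were the H1 genes Hist1h1c, Hist1h1d and Hist1h1e, and the other 8 were all lower, with a median over the 11 of -0.49. Of the 14 genes with under 200 such bases, 7 were higher and 2 lower, with a median of 0.32. Of the 6 without a match, 5 were tested, of which 3 were higher and 0 lower. Over all genes 31.6% were higher and 31.9% lower, so the 3 of 11 higher past 500 bases were near the background. Class, sequence sharing and level differ between these groups, and their part in the counts was not tested. Which stretch of each transcript the probes bind was not known. The values therefore do not show whether a counted RNA ended at the stem-loop or past it.

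**Figure D2:**
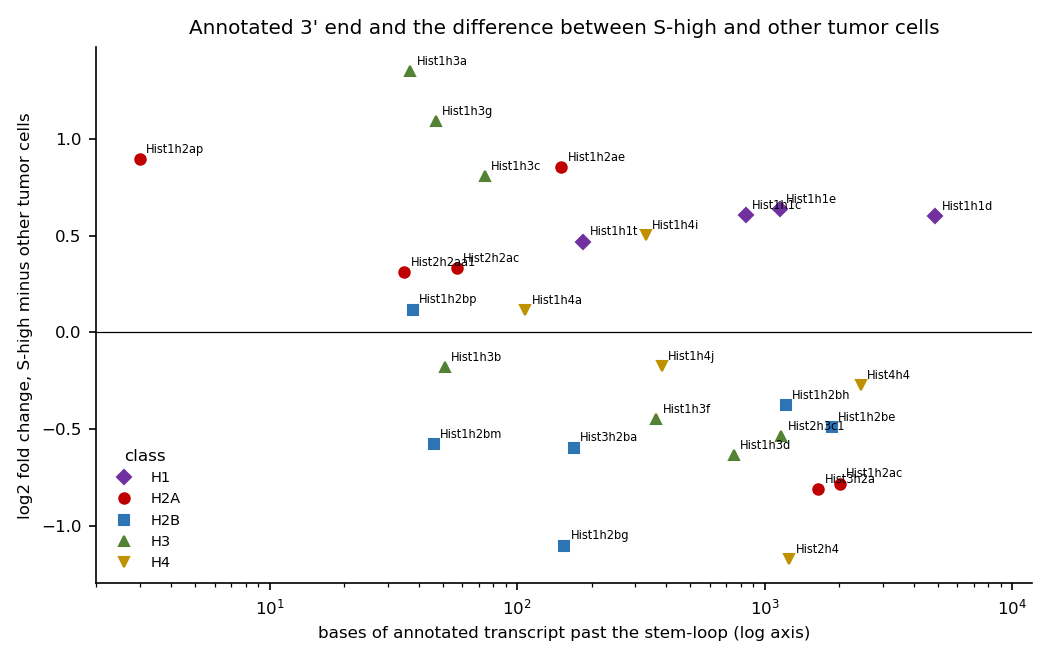
Log2 fold change in S-high minus other tumor cells (vertical axis) against the annotated bases past the stem-loop (log axis) for the 28 genes with a match, with colour and shape for the histone class. Past 500 bases the 3 H1 genes lie above 0 and the 8 core histone genes below it.

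The histone level was then followed along the S list. In tumor cells thinned to 4000 UMIs, the vehicle samples held 5.96 ± 1.05 histone UMIs per cell (mean ± SD, n = 3) at 0 to 4 UMIs of the S list, 15.4 ± 0.68 at 5 to 9, 21.3 ± 1.86 at 10 to 14, 22.8 ± 2.05 at 15 to 19, 24.2 ± 1.12 at 20 to 24 and 25.6 ± 1.32 at 25 and over. The Xevinapant samples held 4.49 ± 0.66, 12.9 ± 0.40, 19.1 ± 3.39, 22.3 ± 1.16, 23.0 ± 2.22 and 23.0 ± 1.24 (n = 2). The level rose in 5 of 5 samples at each of the first 3 steps, by 8.19 to 9.73, by 3.72 to 8.37 and by 1.31 to 4.78 UMIs. It rose in 4 of 5 samples at each of the last 2 steps, and from 15 to 19 to 25 and over it rose in 5 of 5, by 0.65 to 3.72 UMIs. In the same cells and ranges the G2/M list had means over the 5 samples of 3.79, 14.6, 19.1, 18.0, 15.9 and 11.8 UMIs. The replication-independent histone genes had means of 12.4, 19.8, 23.4, 23.3, 22.5 and 21.0 UMIs. Both thus also rose over the first ranges, and the part of the G2/M list in the histone rise was not tested.

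Histone UMIs were unevenly spread over tumor cells. The mean per thinned cell was 17.6, 16.3 and 18.6 UMIs in vehicle and 11.9 and 15.8 UMIs in Xevinapant samples, while the medians were 7, 7 and 9 and 4 and 7. The 20% of cells with most histone UMIs held 63.9%, 59.2% and 56.1% of them in vehicle and 70.2% and 63.8% in Xevinapant samples. Thinned cells with no histone UMI were 2.87%, 1.72% and 0.864% in vehicle and 7.08% and 2.86% in Xevinapant samples, and 0.0384% to 1.84% before thinning. Xevinapant 1 and 2 was the extreme sample in each of these measures.

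When tumor cells were divided by both the S list and a list of G2/M genes (cut at 24 UMIs), the summed level was lowest in cells below both cuts in every sample, at 2752, 3148 and 3387 CPM in vehicle and 1828 and 2813 CPM in Xevinapant samples. Cells above the S cut alone held 6230, 6194 and 6517 CPM and 5139 and 6149 CPM. Cells above the G2/M cut alone held 8690, 6912 and 7544 CPM and 7753 and 7717 CPM, higher than the S-high-only cells in 5 of 5 samples. Cells above both held 9246, 6704 and 8126 CPM and 9016 and 7965 CPM, a range that overlapped the G2/M-only range.

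The second comparison asked whether barcodes with little RNA held the same histone genes as tumor cells. The summed level was close, at 4282, 4412 and 4768 CPM in vehicle and 3244 and 3773 CPM in Xevinapant low-RNA barcodes against 5073, 4732 and 5232 CPM and 3466 and 4558 CPM in tumor cells. It was lower in 5 of 5 samples, at 82.8% to 93.6% of the level in tumor cells. Mitochondrial RNA was higher in the low-RNA barcodes of 5 of 5 samples, at 12831, 15759 and 12060 CPM in vehicle and 16384 and 15648 CPM in Xevinapant against 10101, 11623 and 10887 CPM and 7471 and 9024 CPM in tumor cells. The tumor marker list stood at 70.1% to 89.8% of its level in tumor cells, which were gated on it. Beside this, all 17 immune, 5 erythroid, 6 endothelial and 6 fibroblast or mural markers had a higher mean CPM in low-RNA barcodes, with the immune list at 241 to 642 CPM, and the part of these cells' RNA and of RNA quality in the results was not tested.

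Single genes again moved in both directions. Of 34 tested, 12 (35.3%) were higher and 9 (26.5%) lower in low-RNA barcodes, against 21.0% and 26.1% of 15880 genes (edgeR, sample as a block), so the lower share was near the background. The median log2 fold change was 0.29 against -0.04 over all genes. Without TMM scaling the split was 15 higher and 6 lower, with 18 of the 21 genes called in both and the median of all genes at 0.12. Among the H2A genes, Hist1h2ac (0.95, SE 0.19) and Hist2h2aa1 (0.74, SE 0.24) were higher, the latter not without Xevinapant 3 and 4 (0.68).

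Of the 5 H4 genes 4 were higher. Hist1h4a was at 5.27, 7.63 and 3.46 CPM in vehicle and 13.5 and 8.72 CPM in Xevinapant low-RNA barcodes, against 2.29, 2.46 and 1.22 CPM and 1.82 and 2.05 CPM in tumor cells, from 138 UMIs in the low-RNA barcodes. No low-RNA value reached the tumor range (log2 fold change 1.75, SE 0.25, adjusted p = 5.75e-05, edgeR). Hist1h4j rose by 1.44 (SE 0.25), Hist4h4 by 1.21 (SE 0.20) and Hist2h4 by 0.86 (SE 0.13) on the log2 scale. Hist4h4 was at 10.9, 16.1 and 6.01 CPM in vehicle and 22.4 and 23.0 CPM in Xevinapant low-RNA barcodes against 3.71 to 7.95 CPM in tumor cells, and the low-RNA value of vehicle 4 lay within that range.

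Of the H2B genes Hist1h2bg (1.33, SE 0.19), Hist1h2be (0.99, SE 0.19) and Hist1h2bp (0.43, SE 0.17) were higher and Hist2h2be was lower (-0.31, SE 0.11). The call of Hist1h2bp was lost without vehicle 2 (0.41), Xevinapant 1 and 2 (0.46) or Xevinapant 3 and 4 (0.37), without the barcodes with most UMIs (0.40), without a filter on low counts (0.37), with a list share of 90% (0.41) and with low-RNA barcodes below the median divided by 5 (0.35). Hist1h2bg was at 6.33, 12.4 and 6.19 CPM in vehicle and 13.9 and 14.8 CPM in Xevinapant low-RNA barcodes, against 2.13 to 4.57 CPM in tumor cells, with no overlap. Hist1h2bm had a fold change of 1.56 with an SE of 0.75 and was not called (adjusted p = 0.0995, edgeR). Of the H3 genes Hist1h3f, with 25 UMIs in these barcodes and none in those of vehicle 1 and 3, was called higher (1.45, SE 0.48), as was Hist1h3d (0.60, SE 0.21), a call lost without vehicle 2 (0.42) or vehicle 4 (0.60) and with low-RNA barcodes below the median divided by 5 (0.26). The call of Hist1h3f was lost without vehicle 2 (1.27), Xevinapant 1 and 2 (1.33) or Xevinapant 3 and 4 (1.53), and that of Hist2h2be on leaving out any 1 sample other than vehicle 4 (-0.31 to -0.20). The call of Hist2h2be was also lost with DESeq2 (-0.23) and without TMM (-0.15), and its value shrank to -0.092 with low-RNA barcodes below the median divided by 2.

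The genes with most UMIs were mostly lower. Hist1h2ap fell from 1172, 1156 and 1345 CPM in vehicle and 883 and 1152 CPM in Xevinapant tumor cells to 886, 942 and 1020 CPM and 737 and 812 CPM (log2 fold change -0.53, SE 0.05, adjusted p = 2.43e-06, edgeR). It fell within 5 of 5 samples, although the ranges over samples overlapped. Hist1h2af fell by 0.55 (SE 0.06), Hist1h3g by 0.53 (SE 0.11), Hist1h2ae by 0.43 (SE 0.05), Hist1h1e by 0.36 (SE 0.05), Hist1h1b by 0.33 (SE 0.05) and Hist1h3c by 0.29 (SE 0.05) on the log2 scale. The call of Hist1h1b was lost with low-RNA barcodes below the median divided by 5 (-0.15) and that of Hist1h3c without TMM (-0.13). Hist1h1a has no settled direction here. Its fitted value was -0.16 (SE 0.06) and counted among the lower calls, but its mean was 79.3 CPM in low-RNA barcodes and 79.0 CPM in tumor cells and it was higher in 4 of 5 samples. The call was lost on leaving out any 1 of the 5 samples (-0.17 to -0.04), and the value turned to 0.09 when low-RNA barcodes were taken below the median divided by 5. Hist1h1d was the H1 gene called higher (0.42, SE 0.11), a call lost with low-RNA barcodes below the median divided by 2 (0.28).

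The S-high and the low-RNA comparison share their tumor cells, so the values are set side by side only. For Hist1h2bg they were -1.10 and 1.33, for Hist2h4 -1.17 and 0.86, for Hist1h2ap 0.90 and -0.53, and for Hist1h1d 0.60 and 0.42. Of the other lists, against 21.0% higher and 26.1% lower over all genes, none of the 15 factors rose in low-RNA barcodes and 10 fell, and of the 11 replication-independent histone genes none rose and 8 fell, including H2afz (-0.36, SE 0.05) and H1f0 (-0.19, SE 0.05). The S list fell in 21 of 22 genes. Slbp (-0.04, SE 0.05) and Npat (-0.16, SE 0.07) were not called.

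Over 7 ranges of total UMIs, with tumor cells and low-RNA barcodes pooled, the summed histone level followed a trough. Its mean over the 5 samples was 4127 CPM (SD 603) below 1000 UMIs, 4381 (SD 894) from 1000 to under 2000, 3990 (SD 493) from 2000 to under 4000, 3035 (SD 505) from 4000 to under 8000, 3276 (SD 511) from 8000 to under 16000, 4602 (SD 987) from 16000 to under 32000 and 5201 (SD 729) at 32000 and over. Means of the S list, the G2/M list and the replication-independent histone genes were also lowest from 4000 to under 8000 UMIs. They were 3223, 3299 and 4861 CPM below 1000 UMIs and 2595, 2317 and 4119 CPM in that range. At 32000 UMIs and over they were 3605, 4586 and 5560 CPM. The ratio of the histone level from 16000 to under 32000 UMIs to that from 1000 to under 2000 was 1.05 ± 0.107 (SD, n = 5), from 0.952 to 1.22, so samples fell on both sides of equality.

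Behind this sum the single genes had different courses. Hist1h4a fell from 8.24 CPM below 1000 UMIs to 1.75 CPM at 32000 and over, Hist4h4 from 15.4 to 4.91 CPM and Hist1h2bg from 7.51 to 3.20 CPM. Hist1h1e went from 1258 CPM through 868 CPM from 4000 to under 8000 UMIs to 1610 CPM, and Hist1h2ap from 853 through 691 to 1286 CPM. Hist3h2a stayed between 44.8 and 51.4 CPM in all 7 ranges.

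**Figure D3:**
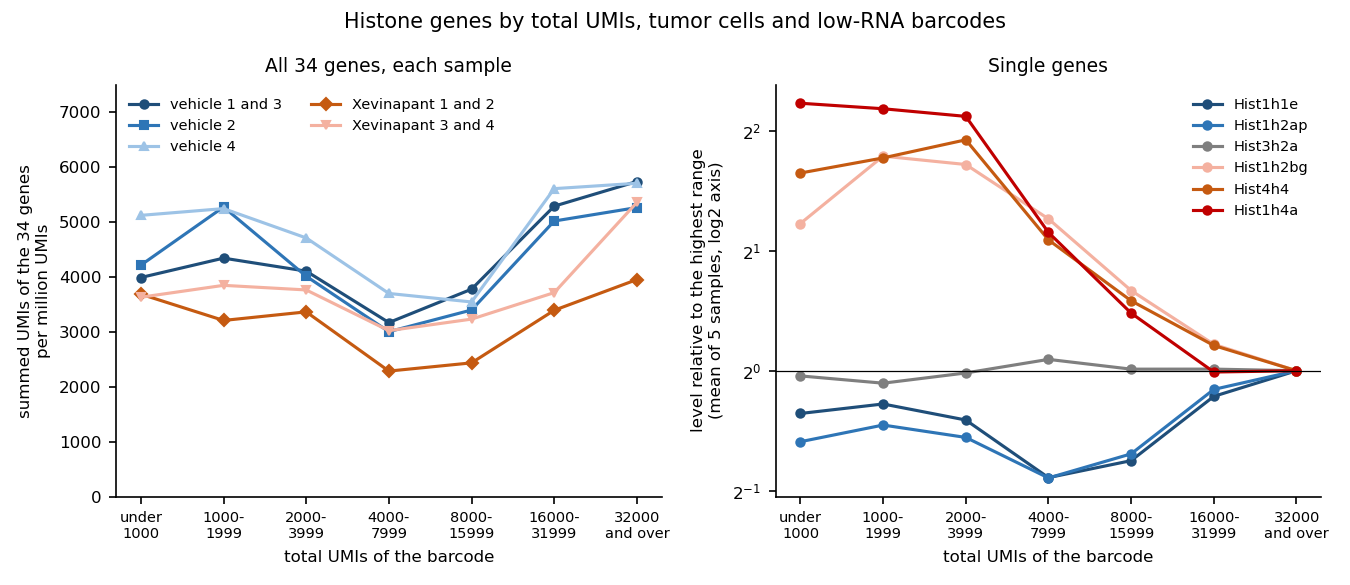
Summed CPM of the 34 genes in each sample (left) and the mean level over 5 samples of 6 genes relative to their level at 32000 UMIs and over (right, log2 axis), by the total UMIs of the barcode. Every sample has its lowest sum between 4000 and 16000 UMIs, and Hist1h4a, Hist4h4 and Hist1h2bg lie above 1 in the lower ranges where Hist1h1e and Hist1h2ap lie below it.

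The third comparison set immune cells against tumor cells. The summed level was 2484, 2894 and 3249 CPM in vehicle and 2333 and 2274 CPM in Xevinapant immune cells, and no immune value reached the tumor range of 3466 to 5232 CPM. It was 49.0% to 67.3% of the level in tumor cells of the same sample. The S list was at 52.3% to 64.1% of its level in those tumor cells. The G2/M list was at 1188 to 2238 CPM in immune cells against 2931 to 4440 CPM in tumor cells. The part of these 2 lists in the histone values was not tested. Free tumor RNA in the droplets gives UMIs in immune cells too, and its part in the histone values was not tested, since the immune gate itself limits the tumor markers.

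Of 33 genes tested, 2 (6.06%) were higher and 15 (45.5%) lower in immune cells, against 34.5% and 39.2% of 14880 genes (edgeR, sample as a block). The median log2 fold change was -0.31 against -0.10. Without TMM scaling, which moved the median of all genes to -0.53, 1 was higher and 19 lower. The calls of Hist1h1b (-0.29, SE 0.11), Hist1h2ae (-0.28, SE 0.10), Hist1h2bc (-0.34, SE 0.10) and Hist1h4i (-0.41, SE 0.17) were each lost on leaving out vehicle 1 and 3 (-0.22, -0.22, -0.30 and -0.27) or Xevinapant 3 and 4 (-0.22, -0.19, -0.24 and -0.37). Leaving out vehicle 2 also ended those of Hist1h1b (-0.27) and Hist1h2ae (-0.30), and leaving out vehicle 4 those of Hist1h1b (-0.30) and Hist1h4i (-0.35). Hist1h1b, Hist1h2ae and Hist1h4i were likewise not called by DESeq2 (-0.24, -0.23 and -0.36) or with a list share of 90% (-0.28, -0.23 and -0.44). Hist1h1b and Hist1h2ae were not called without the barcodes with most UMIs (-0.22 and -0.22), nor was Hist1h1b with a list share of 50% (-0.26). That of Hist1h2bp (-0.67, SE 0.25) was lost on leaving out any 1 sample other than vehicle 2 (-0.73 to -0.54). By class 4 of 6 H1, 4 of 7 H2A, 4 of 8 H2B, 2 of 7 H3 and 1 of 5 H4 genes were lower.

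Hist1h1a was the exception among the linker histones. It stood at 148, 167 and 196 CPM in vehicle and 191 and 122 CPM in Xevinapant immune cells against 101, 71.4 and 75.5 CPM and 63.0 and 84.7 CPM in tumor cells. Every immune value was above every tumor value (log2 fold change 1.48, SE 0.17, adjusted p = 5.24e-05, edgeR). Hist1h2be was the other gene called higher, at 0.87 (SE 0.22) from 119 immune UMIs, a call lost without TMM (0.44), and its overlap with the Hist1h1e locus noted above applies.

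The largest decrease was in Hist3h2ba, at 8.62, 5.53 and 5.06 CPM in vehicle and 2.87 and 3.01 CPM in Xevinapant immune cells against 11.7 to 36.5 CPM in tumor cells (log2 fold change -1.91, SE 0.20, adjusted p = 3.13e-05, edgeR). The groups did not overlap. Hist1h1t (-1.07, SE 0.26), Hist1h3g (-0.91, SE 0.20), Hist2h2be (-0.68, SE 0.18) and Hist1h1e (-0.68, SE 0.10) followed among the called genes. Hist1h3a had a mean of 64.2 CPM in immune and 86.1 CPM in tumor cells and was lower in 5 of 5 samples, while its fitted value after TMM scaling was 0.00 (SE 0.10). Hist1h2aa had 0 UMIs in immune cells, which allows a level of up to 0.130 CPM by counting error, and was not tested. Of the replication-independent histones 3 of 11 were higher and 8 lower, against 34.5% and 39.2% of all genes, with H1f0, a linker histone linked to differentiation and quiescence, at -1.37 (SE 0.11) and H3f3a at 0.22 (SE 0.09).

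**Figure D4:**
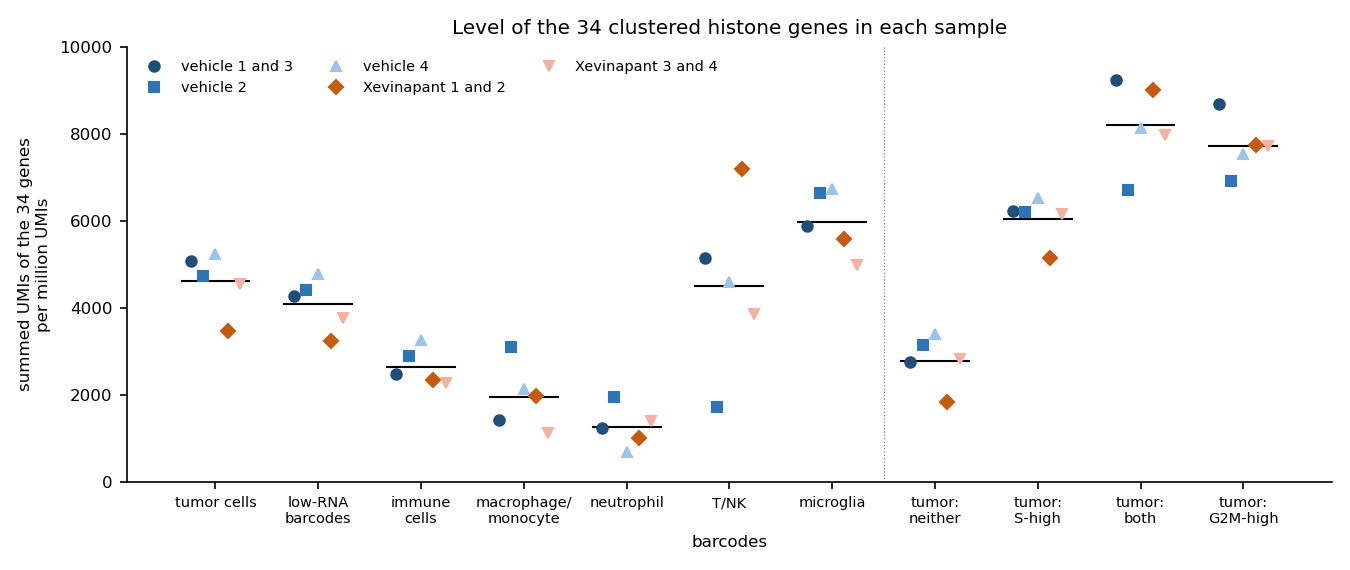
Summed CPM of the 34 genes (vertical axis) in each of the 5 samples by gate, with the black line at the mean of the samples, and tumor cells split by the S and G2/M lists at the right. Immune cells lie below tumor cells in every sample, and tumor cells below both cuts lie below those above either cut.

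The last comparison asked whether the histone genes differ between Xevinapant and vehicle. In tumor cells the summed level was 5073, 4732 and 5232 CPM in vehicle (5012 ± 256, SD, n = 3) and 3466 and 4558 CPM in Xevinapant (4012 ± 772, SD, n = 2). Both Xevinapant values were below all vehicle values, with Xevinapant 3 and 4 close to vehicle 2. The S list stood at 3614, 3414 and 3495 CPM in vehicle and 2674 and 3439 CPM in Xevinapant tumor cells and overlapped. The G2/M list stood at 3946, 4065 and 4440 CPM in vehicle and 2931 and 3296 CPM in Xevinapant tumor cells and did not overlap. Over its 18 tested genes the log2 fold change had its median at -0.45, with 17 negative, 16 at an unadjusted p under 0.05 and 0 called (edgeR), and its part in the histone values was not tested. Mitochondrial RNA was also lower in both Xevinapant samples (7471 and 9024 CPM) than in the vehicle samples (10101, 11623 and 10887 CPM), and its part was not tested either. The immune list was higher in both Xevinapant samples (129 and 114 CPM) than in the vehicle samples (85.0, 69.8 and 104 CPM). Its part was likewise not tested. The shares of S-high cells given above overlapped between the groups. Of the 6 ranges of the S list, the histone UMIs per thinned cell of both Xevinapant samples were below all vehicle samples at 5 to 9 UMIs (12.6 and 13.1 against 14.7 and more) and at 25 and over (22.1 and 23.9 against 24.2 and more), and the groups overlapped in the other 4.

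No histone gene passed the adjusted threshold in tumor cells. Of 33 tested, 0 were called, against 0% of all 14618 genes tested (edgeR), while 3 histone genes (9.09%) and 1652 genes in all (11.3%) had an unadjusted p under 0.05. DESeq2 called 1 histone gene of 33 (3.03%) and 318 genes in all (2.18%), and edgeR with each matrix as 1 sample 1 of 33 (3.03%) and 720 of 14142 (5.09%), so these counts were near the background. The median log2 fold change was -0.21 against 0.01 over all genes, with 11 positive and 22 negative. In 4 genes (12.1%) both Xevinapant samples were above all vehicle samples and in 5 (15.2%) below, against 19.5% and 10.9% of all genes. With 3 samples against 2 an exact permutation test of 1 value has 10 assignments and cannot go below p = 0.1 one-sided, and p-values here measure the spread between these samples, which may be technical.

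Hist1h3c had the lowest adjusted p. It was at 158, 146 and 160 CPM in vehicle and 75.3 and 111 CPM in Xevinapant tumor cells. Both Xevinapant values lay well below the vehicle range (log2 fold change -0.79, SE 0.17, adjusted p = 0.366, edgeR). With DESeq2 the adjusted p was 0.00688 and with each matrix as 1 sample 0.0408. Hist1h1b was at 899, 775 and 887 CPM in vehicle and 423 and 693 CPM in Xevinapant (-0.67, SE 0.22, adjusted p = 0.409, edgeR). Hist1h1d went the other way, with 29.2, 26.8 and 33.5 CPM in vehicle and 36.4 and 43.3 CPM in Xevinapant (0.36, SE 0.15, adjusted p = 0.433, edgeR), and all these groups stood apart.

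Hist1h1e, the gene with most UMIs, was at 1500, 1414 and 1629 CPM in vehicle and 1104 and 1374 CPM in Xevinapant (-0.34, SE 0.16). Hist1h2ap was at 1172, 1156 and 1345 CPM and 883 and 1152 CPM (-0.32, SE 0.17). Both were not called. The testis form Hist1h2aa was at 0.654 CPM in vehicle 1 and 3 and at 0 to 0.0613 CPM in the other samples, from 103 UMIs, and was below the filter for the test.

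**Figure D5:**
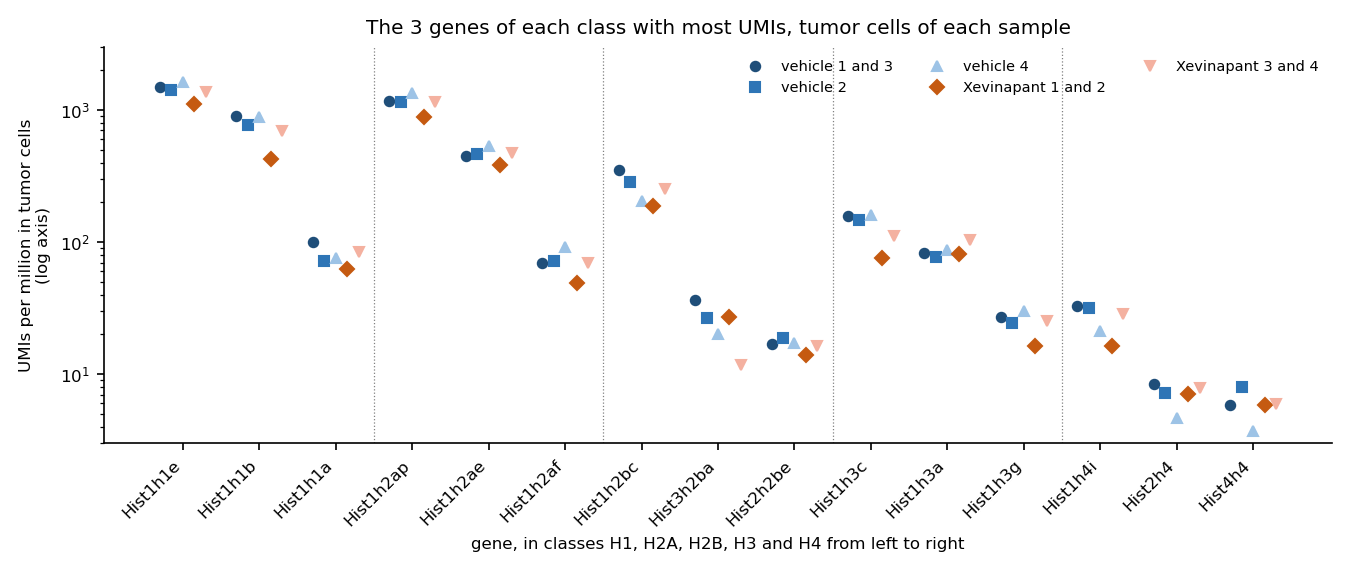
CPM in tumor cells of each sample (log axis) for the 3 genes of each class with most UMIs. The Xevinapant points (orange) lie below all vehicle points (blue) for Hist1h3c and Hist1h1b but within or beside them for Hist1h3a, Hist2h4 and Hist4h4.

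In low-RNA barcodes the sums were 4282, 4412 and 4768 CPM in vehicle (4487 ± 251, SD) and 3244 and 3773 CPM in Xevinapant (3509 ± 375, SD), which did not overlap. In the same barcodes the immune list was at 332, 241 and 323 CPM in vehicle and 642 and 445 CPM in Xevinapant. The tumor list was at 7448, 7843 and 8159 CPM against 6823 and 6300 CPM, the S list at 3281, 3128 and 3420 CPM against 2356 and 2865 CPM and the G2/M list at 3108, 3074 and 3510 CPM against 2388 and 2619 CPM. All 4 lists stood apart between the groups, the immune list higher and the others lower in Xevinapant, and their part in the histone values was not tested. Of 29 genes tested 0 were called against 0.270% of all 11859 (edgeR), with 10 (34.5%) at an unadjusted p under 0.05 against 2051 of all genes (17.3%). DESeq2 called 2 (Hist1h1b and Hist1h1d, 6.90%) against 236 of all genes (1.99%), and with each matrix as 1 sample edgeR called 5 of 27 (18.5%) against 791 of 11269 (7.02%). In 7 genes (24.1%) both Xevinapant samples were above and in 8 (27.6%) below all vehicle samples, against 17.0% and 19.9% of all genes. Hist1h1d was at 41.1, 40.2 and 40.2 CPM in vehicle and 82.3 and 57.6 CPM in Xevinapant (0.79, SE 0.18, adjusted p = 0.104, edgeR). Hist1h1b was at 771, 716 and 859 CPM and 392 and 538 CPM (-0.73, SE 0.16, adjusted p = 0.0997, edgeR). Hist4h4 (1.12, SE 0.36) and Hist1h4a (1.06, SE 0.44) also had both Xevinapant values above the vehicle values.

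In immune cells the sums were 2484, 2894 and 3249 CPM in vehicle (2876 ± 383, SD) and 2333 and 2274 CPM in Xevinapant (2304 ± 41.8, SD), without overlap. The make-up of the gate varied by sample. Of its 3707 cells, 1418 were not assigned to microglia-, macrophage- or monocyte-, neutrophil- or T- or NK-like cells. Their histone sums are not given here. Neutrophil-like cells were 44 of 543, 10 of 242 and 11 of 587 in vehicle samples. They were 221 of 1248 and 86 of 1087 in Xevinapant samples. Microglia-like cells were 21, 7 and 29 and 8 and 36 of the same totals. Both shares overlapped between the groups. Within macrophage- or monocyte-like cells the histone sums overlapped, at 1413, 3105 and 2140 CPM in vehicle and 1979 and 1131 CPM in Xevinapant. They also overlapped within neutrophil-like and within T- or NK-like cells. Within microglia-like cells, with 7 to 36 cells per sample, they did not. There they were 5876, 6634 and 6742 CPM in vehicle and 5584 and 4990 CPM in Xevinapant. With each cell thinned to 1000 UMIs, however, the microglia-like means overlapped, at 3.78, 1.83 and 5.66 UMIs in vehicle and 3.83 and 4.83 UMIs in Xevinapant. Over the whole gate the S list (2104, 1988 and 2240 CPM against 1679 and 1799 CPM), the G2/M list (1608, 1778 and 2238 CPM against 1188 and 1391 CPM) and mitochondrial RNA (9363, 10214 and 11158 CPM against 5998 and 8607 CPM) were lower in Xevinapant without overlap. The tumor marker list was also lower in Xevinapant without overlap, at 1176, 1242 and 1553 CPM against 567 and 1014 CPM. The part of the make-up and of these lists in the histone values was not tested. Of 24 genes tested 0 were called against 0.0171% of all 11730 (edgeR), with 4 (16.7%) at an unadjusted p under 0.05 against 1330 of all genes (11.3%). DESeq2 called 1 (4.17%) against 72 of all genes (0.614%), and with each matrix as 1 sample edgeR called 1 of 21 (4.76%) against 140 of 11439 (1.22%). In 1 gene (4.17%) both Xevinapant samples were above and in 5 (20.8%) below all vehicle samples, against 14.0% and 13.7% of all genes. Hist1h3c was at 94.1, 99.5 and 109 CPM in vehicle and 42.9 and 57.1 CPM in Xevinapant, without overlap (-0.996, SE 0.14, adjusted p = 0.116, edgeR). It was called by DESeq2, with each matrix as 1 sample, with a stricter gate and without Xevinapant 3 and 4.

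Within S-high tumor cells the sums were 6987, 6281 and 6817 CPM in vehicle and 5853 and 6481 CPM in Xevinapant and overlapped. Of 32 genes tested 0 were called against 0% of all 13217 (edgeR), with 5 histone genes (15.6%) and 896 genes in all (6.78%) at an unadjusted p under 0.05. DESeq2 called 47 genes in all (0.356%) and Hist1h1d alone of the histone genes (3.12%), and with each matrix as 1 sample edgeR called 0 histone genes and 9 genes in all (0.0712%). The median log2 fold change was -0.03 against 0.01, with 16 genes positive and 16 negative. In 3 genes (9.38%) both Xevinapant samples were above and in 3 below all vehicle samples, against 13.6% and 10.5% of all genes. Hist1h1d was at 37.0, 31.9 and 39.9 CPM in vehicle and 56.9 and 58.9 CPM in Xevinapant S-high cells (0.65, SE 0.13, adjusted p = 0.713, edgeR). Hist1h3c was at 222, 195 and 208 CPM and 137 and 164 CPM (-0.49, SE 0.12, adjusted p = 0.713, edgeR), and Hist1h3a at 144, 139 and 147 CPM and 185 and 183 CPM (0.33, SE 0.10), each without overlap. Of the factors and replication-independent histones, 0 of 15 and 0 of 11 were called between treatments in tumor cells, with Slbp at -0.11 (SE 0.13) and H2afz at -0.47 (SE 0.15). Negative values numbered 14 and 10, with medians of -0.20 and -0.30, and 2 and 5 genes had an unadjusted p under 0.05 (edgeR). The replication-independent sum was 5195, 5611 and 5543 CPM in vehicle and 4488 and 4905 CPM in Xevinapant tumor cells, without overlap.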

How the data were processed

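Fixed tumor cells of the 2 groups were sequenced with a probe panel in droplets. The authors deposited raw UMI counts per gene and barcode, made with Cell Ranger against mm10 with cell calling. The file headers give version 7.1.0, the labels 3.0, and the study's own cell filters were not applied to the files. The labels give the molecule as total RNA for vehicle and polyA RNA for Xevinapant, and the names of the Xevinapant files carry the word vehicle, and the labels were followed.

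Kept barcodes had 200 or more genes, mitochondrial UMIs of 10% or less and log10 genes over log10 UMIs of 0.8 or more. A gate needed 5 marker UMIs and 70% of the UMIs of all lists (3 UMIs for immune subgates). No doublet caller was run. Mixed barcodes stayed unassigned unless their total UMIs lay under the low-RNA cut, in which case they counted as low-RNA barcodes. An alternative left out the barcodes with most UMIs (0.8% per 1000 barcodes). Cells were thinned with a fixed seed. Counts were summed per sample and gate and tested with edgeR 4.0.16 (glmQLFit and glmQLFTest, TMM, filterByExpr, Benjamini-Hochberg over all genes, threshold 0.05) in R 4.3.3, with DESeq2 1.42.0 as an alternative. CPM is UMIs per 1000000 UMIs of the summed barcodes. An SE beside an edgeR log2 fold change is its absolute value divided by the square root of the F statistic of that test. In data simulated with the same dispersion for every gene, edgeR recovered 93.94% of genes changed by a log2 fold of 1 in the tumor comparison of treatments. It recovered 80.61% in the low-RNA comparison. False calls were 16 and 5, where DESeq2 made 34 and 11. Real genes differ in dispersion and samples differ more, so these shares do not give the power of the fits to the samples. Coordinates and transcripts are from GENCODE M21 (GRCm38). Members and lists were chosen with earlier results of these data known. Named genes were the 3 of each class with most UMIs in tumor cells, the 3 highest and 3 lowest in each within-sample comparison, and 6 genes of the related lists. Others were named after their values were seen. Values and counts across samples cover the spread between samples, and shares of cells counting error only.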

Additional observations from a re-analysis of the deposited data

Results flagged for a closer look

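The 3 patterns here stood out because every vehicle sample moved one way and every Xevinapant sample the other in a within-sample contrast, and the difference between the groups was not tested. The S-high, low-RNA and immune comparisons tested 33, 34 and 33 histone genes. The share of all genes with such a split is not given here, so whether 3 patterns exceed the background is not known. For Hist1h1c, a linker histone gene, the mean log2 ratio of low-RNA barcodes to tumor cells was 0.17 in vehicle and -0.20 in Xevinapant samples. For Hist1h3d, from 72 UMIs in immune cells, the mean log2 ratio of immune to tumor cells was -0.97 in vehicle and 0.060 in Xevinapant samples. For Hist1h2bp the mean log2 ratio of S-high to other tumor cells was -0.14 in vehicle and 0.31 in Xevinapant samples. Groups of 3 and 2 samples are too small for a test for single outlying samples.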

How the results depend on the processing

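The counts of genes called between S-high and other tumor cells, between low-RNA barcodes and tumor cells and between immune and tumor cells stayed within 1.5 times their main value under the alternatives run, except that immune cells had 1 gene higher in place of 2 without TMM. Between treatments, where the main count was 0, DESeq2 called 1 histone gene in tumor, 2 in low-RNA, 1 in immune and 1 in S-high cells, while it called 2.18%, 1.99%, 0.614% and 0.356% of all genes. With each matrix as 1 sample the counts were 1 in tumor, 5 in low-RNA and 1 in immune cells, against 5.09%, 7.02% and 1.22% of all genes. Without a filter on low counts 6 of 34 histone genes were called in low-RNA barcodes against 978 of 18706 genes (5.23%). In immune cells 1 was called with a list share of 90%, against 11 of 10940 genes (0.101%), and leaving out each sample in turn gave 0 to 1, the 1 without Xevinapant 3 and 4 against 120 of 11852 genes (1.01%). The fold change of Hist1h1a in low-RNA barcodes reversed from -0.16 to 0.095 with barcodes below the median divided by 5, and the cause was not tested. Of the genes called, 4 of 24 in S-high cells (Hist1h1t, Hist1h2bh, Hist2h2aa1 and Hist4h4), 6 of 17 in immune cells (Hist1h1b, Hist1h2ae, Hist1h2bc, Hist1h2be, Hist1h2bp and Hist1h4i) and 9 of 21 in low-RNA barcodes (Hist1h1a, Hist1h1b, Hist1h1d, Hist1h2bp, Hist1h3c, Hist1h3d, Hist1h3f, Hist2h2aa1 and Hist2h2be) lost their call under some alternative. Leaving out 1 sample was enough for 4, 5 and 6 of them. No paired analysis was possible between the treatments because pairing of the samples is not given, and the within-sample comparisons already used the sample as a block. Depth limits the 18 genes with under 10000 UMIs, whose values in immune cells and low-RNA barcodes rest on few counts.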

Other observations

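Within the immune gate the summed histone level differed by cell type in these samples. The 101 microglia-like cells, with 7 to 36 cells per sample, held 5876, 6634 and 6742 CPM in vehicle and 5584 and 4990 CPM in Xevinapant samples. These values were 109% to 161% of the tumor level of the same sample. In those cells the G2/M list stood at 2620 to 4300 CPM and the S list at 2377 to 3602 CPM. The tumor list stood there at 724 to 2854 CPM. In macrophage- or monocyte-like cells these lists stood at 864 to 1584, 1098 to 1807 and 455 to 1575 CPM. In neutrophil-like cells they stood at 217 to 1860, 465 to 1094 and 459 to 1314 CPM. The part of these lists in the histone values was not tested. With each cell thinned to 1000 UMIs, microglia-like means were 3.78, 1.83 and 5.66 UMIs in vehicle and 3.83 and 4.83 in Xevinapant samples. Tumor cells then held 4.38, 4.09 and 4.66 UMIs and 3.07 and 3.89 UMIs. Thinned microglia-like means were thus below tumor cells in vehicle 1 and 3 and in vehicle 2, and above them in the other samples. The 1670 macrophage- or monocyte-like cells held 1413, 3105 and 2140 CPM and 1979 and 1131 CPM, and the 372 neutrophil-like cells 1246, 1953 and 684 CPM and 1011 and 1391 CPM. In these pooled sums microglia-like cells were above both in 5 of 5 samples, but with each cell thinned to 1000 UMIs in 4 of 5. In vehicle 2 the 6 microglia-like cells deep enough then held a mean of 1.83 and a median of 0 histone UMIs, against means of 2.41 in macrophage- or monocyte-like and 2.33 in neutrophil-like cells. The 146 T- or NK-like cells ranged from 1708 CPM in vehicle 2, from 8 cells and 24 histone UMIs, to 7199 CPM in Xevinapant 1 and 2, from 27 cells, while their thinned means lay between 1.88 and 2.48 UMIs. No test was run on these subgates, and the 1418 immune cells in none of them are not described.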
